A study of Mus musculus with 38 samples.

Results

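The aminoacyl-tRNA synthetases of mouse soleus muscle were examined at the level of their promoters. Members were the CAGE clusters whose strongest start site was no more than 500 bp, on the same strand, from a 5' end annotated in GENCODE vM21 (mm10) for 1 of 36 listed genes, which are the 20 genes for cytosolic enzymes or their subunits and the 16 genes for mitochondrial enzymes. The rule found 33 promoters, 1 for each of 33 genes, among 10819 clusters, of which 9615 were near the 5' end of some annotated gene. All 20 cytosolic genes and 13 of the 16 mitochondrial genes had a promoter. No cluster was found for Aars2, Pars2 or Wars2. All 33 promoters had enough tags to be tested.

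CAGE (cap analysis of gene expression) reads the capped 5' ends of RNA, so each counted tag marks 1 transcript start, and the level of a promoter is given here as CPM, its tags in every 1000000 tags of the library, after TMM scaling (trimmed mean of M-values, which evens out library composition). Because a transcript gives 1 tag whatever its length, these levels need no correction for length between genes. The order of genes by level still differed between experiments 1 and 2 for some members, such as Rars and Yars. All mice were C57BL/6J, and each library came from 1 mouse. They were young adult males according to the study's methods. In experiment 1, mice had free access to food on day 1 (Pre, n = 4) or had been given food again by day 3 (Post, n = 4). Mid mice (n = 8) were sampled on day 2, after food was withdrawn at a low ambient temperature to induce torpor. Per the study, oxygen consumption varied widely among Mid mice, which were in torpor or between bouts of it. The study describes some of them as metabolically non-torpid. The other groups, all sampled on day 2 without torpor, were mice at a high ambient temperature (HiT, n = 4), mice that kept their food at the low temperature (Fed, n = 4), and torpor-deprived mice (Dep, n = 4), which were without food and were touched gently whenever oxygen consumption began to drop. The labels describe HiT as having food and name the Fed condition starvation, whereas the study's methods give HiT as the fasted and Fed as the fed group, and the methods were followed. Experiment 2 was a separate set of mice with Pre (n = 2), Mid (n = 5) and Post (n = 3), sequenced in another run. Libraries of experiment 1 held 18257657 to 39176649 tags and those of experiment 2 held 9359994 to 20914855. All 7 listed slow-muscle marker genes had clusters, and their summed level was 10027 to 16436 CPM in experiment 1 and 20101 to 30343 in experiment 2. All 7 listed fast glycolytic muscle genes also had clusters, with sums of 6610 to 11126 CPM in experiment 1 and 18186 to 25867 in experiment 2.

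Aminoacyl-tRNA synthetases join each amino acid to its matching tRNA, which is the step that supplies charged tRNA to the ribosome. Cytosol and mitochondria use separate sets of enzymes, nearly all of them encoded in the nucleus by different genes, although Gars and Kars each make both forms from 1 gene. Several cytosolic enzymes sit together in a multisynthetase complex held by scaffold proteins, and many cytosolic synthetase genes are known targets of ATF4, the transcription factor of the amino acid response and the integrated stress response.

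Promoter sequences bear on these genes because ATF4 with its C/EBP partners recognises a composite element, searched here as TGATGNAA on both strands (TTNCATCA when read on the other strand). RefSeq promoter sequences (GRCm38.p6, from 250 bases before to 50 after each gene's start) were matched for 25 of the 33 members. Those without a sequence were Cars, Hars, Hars2, Lars, Nars, Rars, Vars and Wars. The element was present in 5 of 13 cytosolic promoters (Aars, Gars, Iars, Tars and Yars) and in 0 of 12 mitochondrial promoters, and 3.97% of 32851 RefSeq promoters of that length held it. Counted from the RefSeq start, its first base lay at -112 and at 9 in Aars, at -30 in Gars, at 7 in Iars, at -15 in Tars and at 3 in Yars. Counted from the measured cluster peak, it lay at -193 and -72 in Aars, -34 in Gars, -7 in Iars, -48 in Tars and 5 in Yars. The 5 promoters with the element are printed first, followed by those of Eprs and Sars, which had no match in their windows and are among the members that varied most between groups. Each run goes 5′ to 3′ on the strand of the gene, and capitals mark the TGATGNAA element or its reverse complement. Windows and runs were set on RefSeq starts and not on measured peaks. The measured peak lay past the end of the printed run in Tars, Aars, Eprs and Sars. In Aars and Sars it also lay past the end of the searched window. In GRCm38.p6 the Yars run is chr4:129189778-129189932 and the Tars run is chr15:11399629-11399783, on the plus and the minus strand. The Aars run is chr8:111033717-111033871, the Gars run chr6:55037876-55038030, the Iars run chr13:49682005-49682159 and the Eprs run chr1:185362919-185363073, all on the plus strand, and the Sars run is chr3:108445230-108445384 on the minus strand.
Yars: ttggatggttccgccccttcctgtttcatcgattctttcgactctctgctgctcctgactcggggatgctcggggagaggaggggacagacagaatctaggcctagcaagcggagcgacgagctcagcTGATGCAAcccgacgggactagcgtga
Tars: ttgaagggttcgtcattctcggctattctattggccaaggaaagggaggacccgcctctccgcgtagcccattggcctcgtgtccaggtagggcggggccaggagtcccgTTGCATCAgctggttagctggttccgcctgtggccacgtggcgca
Aars: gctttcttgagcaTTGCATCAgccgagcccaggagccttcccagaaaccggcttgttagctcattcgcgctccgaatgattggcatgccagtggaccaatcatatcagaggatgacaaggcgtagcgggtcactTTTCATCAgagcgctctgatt
Gars: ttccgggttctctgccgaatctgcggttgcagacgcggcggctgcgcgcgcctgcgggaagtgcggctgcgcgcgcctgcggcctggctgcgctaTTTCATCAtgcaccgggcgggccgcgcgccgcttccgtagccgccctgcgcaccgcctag
Iars: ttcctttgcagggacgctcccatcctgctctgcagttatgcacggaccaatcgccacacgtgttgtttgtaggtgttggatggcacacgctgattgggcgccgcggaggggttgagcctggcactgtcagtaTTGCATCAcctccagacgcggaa
Eprs: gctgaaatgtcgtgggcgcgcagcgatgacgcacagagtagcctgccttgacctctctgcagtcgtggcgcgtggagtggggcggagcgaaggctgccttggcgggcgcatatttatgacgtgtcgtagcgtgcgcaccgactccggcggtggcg
Sars: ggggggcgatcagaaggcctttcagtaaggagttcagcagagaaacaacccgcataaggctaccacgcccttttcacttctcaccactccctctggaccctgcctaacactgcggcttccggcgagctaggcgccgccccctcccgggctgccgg

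The other 3 elements searched, also on both strands, were less divided by compartment. The palindromic NRF1 element, known from promoters of many mitochondrial genes, was found in 3 of 13 cytosolic promoters (Farsb, Kars and Tars) and 2 of 12 mitochondrial ones (Iars2 and Mars2), against 4.6% of all RefSeq promoters. The E-box CACGTG was found in 4 cytosolic promoters (Aars, Farsb, Iars and Tars) and 1 mitochondrial promoter (Ears2), against 7.15%. The ETS element ACTTCCG was found in Farsa and Mars1 and in Ears2 and Rars2, against 6.42%. A match is a string of letters in a window and not a measured binding site.

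Each member's strongest start was found no more than 100 bp from a 5' end annotated for its gene. Cytosolic promoters had mean levels over the 28 libraries of experiment 1 from 12.02 CPM (Farsa) to 210 (Eprs), with a median of 41.8. Mitochondrial promoters ran from 6.40 (Rars2) to 69.8 (Iars2), with a median of 15.7. Eprs, which encodes the enzyme for both glutamate and proline, was at the 94.8th percentile of all clusters, followed by Nars (asparagine) at 116 CPM and Sars (serine) at 84.8. Summed over members, cytosolic promoters gave 945 to 994 CPM in Pre and 1064 to 1263 in Mid, and mitochondrial promoters gave 246 to 269 in Pre and 225 to 263 in Mid.

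Tests used edgeR's quasi-likelihood test over all clusters with any tag, and a promoter was called when its Benjamini-Hochberg adjusted p was under 0.05. Called promoters are described as higher or lower in 1 group than in another. In the test for any difference among the 6 groups of experiment 1, 17 of 20 cytosolic and 7 of 13 mitochondrial promoters were called, beside 70.6% of all 10776 clusters, so neither count stands far from the background. The 8 cytosolic and 6 mitochondrial promoters with the smallest p in that test are described library by library. They were Eprs, Dars, Hars, Nars, Sars, Yars, Tars and Rars among the cytosolic members, and Cars2, Hars2, Ears2, Nars2, Mars2 and Yars2 among the mitochondrial members. In whole muscle, more cells of a type and more RNA per cell cannot be told apart.

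The first comparison set Mid against Pre. Food, sampling day and torpor changed together between these groups, so they cannot be told apart. From Pre to Mid, 9 of 20 cytosolic promoters were higher and none was lower, whereas 2 of 13 mitochondrial promoters were lower and none was higher. Over all clusters 30.2% were called, 15.4% as higher and 14.8% as lower. Of 5 endothelial genes 3 were lower and 1 was higher in Mid, and their part in these values was not tested. The median log2 fold change was 0.16 for cytosolic promoters, with 15 of 20 positive, and -0.09 for mitochondrial promoters, with 11 of 13 negative, and it was 0.01 for all clusters. The higher cytosolic promoters were Eprs, Nars, Sars, Qars, Mars1, Lars, Tars, Yars and Cars. The lower mitochondrial promoters were Mars2 and Hars2. These counts turned on scaling. With library size alone and no TMM factors, 0 cytosolic and 1 mitochondrial promoter were called, all in the same directions as before. With upper-quartile factors, 4 cytosolic promoters were higher and 3 lower, and 6 mitochondrial ones were lower. Without Pre replicate 3 the calls fell from 11 to 6.

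Nars, the asparagine enzyme, had the largest rise of the cytosolic set on the log2 scale. Its level was 94.2, 99.2, 89.6 and 94.7 CPM in the Pre libraries and 114 to 150 in Mid, with a median of 126. Every Mid library was above every Pre library. The log2 fold change was 0.44 ± 0.07 (SE, adjusted p = 2.5e-05).

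Sars, the serine enzyme, stood at 71.0, 77.8, 63.8 and 67.7 in Pre and at 81.4 to 102 in Mid, with a median of 91.7. Again the groups did not overlap, and the log2 fold change was 0.40 ± 0.07 (adjusted p = 7.8e-05). Eprs was at 181, 181, 179 and 206 in Pre and at 214 to 279 in Mid, with a median of 237. All 8 Mid libraries lay above the highest Pre library, which itself stood apart from the other Pre libraries, and the log2 fold change was 0.35 ± 0.07 (adjusted p = 2.5e-04).

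The remaining rises were smaller. Yars, for tyrosine, was at 64.0, 57.0, 60.6 and 61.4 in Pre and at 60.5 to 77.1 in Mid, with a median of 72.1. Its groups overlapped in the lowest Mid libraries, and the log2 fold change was 0.19 ± 0.07 (adjusted p = 0.029). Tars, for threonine, was at 34.0, 31.7, 29.7 and 31.1 in Pre and at 33.6 to 44.3 in Mid, with a median of 36.1, a log2 fold change of 0.21 ± 0.08 (adjusted p = 0.035). Qars, Mars1, Lars and Cars, the enzymes for glutamine, methionine, leucine and cysteine, had log2 fold changes of 0.18 to 0.25. Calls for Cars and Lars were the least secure, with adjusted p of 0.049 and 0.045. The call of Cars was lost without each of 17 libraries in turn, that of Lars without each of 8, Yars 5, Tars 4 and Mars1 1, where the log2 fold change was 0.14 or more. For Lars it fell furthest without Pre replicate 4, from 0.22 to 0.14 (adjusted p = 0.23). Dars, for aspartate, missed the threshold at 0.16 ± 0.06 (adjusted p = 0.0503).

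Mars2, the mitochondrial methionine enzyme, was at 8.80, 8.48, 8.60 and 10.01 CPM in Pre and at 5.75 to 8.19 in Mid, with a median of 6.82. Every Mid library lay below every Pre library, and Mars2 fell by 0.40 ± 0.11 on the log2 scale (adjusted p = 0.0064). Hars2, the mitochondrial histidine enzyme, was at 13.2, 11.7, 11.9 and 11.2 in Pre and at 7.62 to 11.9 in Mid, with a median of 9.72. A single Mid library, replicate 6, reached the Pre range, and Hars2 fell by 0.31 ± 0.09 (adjusted p = 0.011). Without Pre replicate 1 it was at -0.26 and was not called (adjusted p = 0.058).

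Because scaling shifts both compartments together, the cytosolic to mitochondrial ratio of summed tags within each library was also taken, a measure added after the data had been seen and given with no test. The cytosolic to mitochondrial ratio was 3.999, 3.90, 3.52 and 3.96 in Pre and 4.41 to 5.14 in Mid, with a median of 4.73. In Fed it was 3.65, 3.87, 3.92 and 3.89, and in Dep it was 5.09, 5.19, 4.79 and 5.58. The highest Pre or Fed value was 3.999 and the lowest Mid or Dep value was 4.41, whatever the scaling, with HiT at 4.24 to 4.69. The Post libraries were at 4.91, 4.88, 4.89 and 4.05. In experiment 2 the ratio was 3.72 and 4.25 in Pre, 4.56 to 4.96 in Mid and 4.50 to 4.75 in Post. The abundant promoters weigh most in this ratio, and Eprs is the largest of them. On the mitochondrial side Iars2 is the largest. Its mean level was 74.7 in Pre, 75.1 in Mid, 60.8 in Post, 65.7 in HiT, 77.9 in Fed and 59.5 in Dep. Gars and Kars, which make both forms, were counted as cytosolic.

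**Figure D1:**
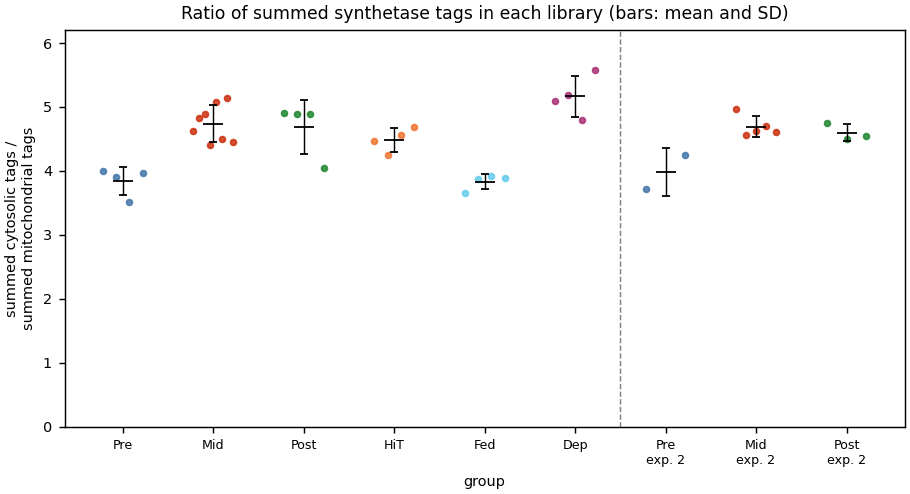
The vertical axis is the summed level of the 20 cytosolic promoters divided by that of the 13 mitochondrial promoters in each library, and the horizontal axis gives the group, with experiment 2 to the right of the dashed line. Dots are libraries and bars are mean and SD. Pre and Fed libraries of experiment 1 lie between 3.52 and 3.999, and Mid libraries lie between 4.41 and 5.14.

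The cytosolic enzymes were split by a list of 12 known ATF4 targets and the other 8. Among the listed targets 8 of 12 were higher in Mid than in Pre, with a median log2 fold change of 0.20. Among the other 8, Qars alone was called, as higher, and the median was -0.05, beside the 15.4% of all clusters called as higher. From Fed to Mid, 6 of the 12 listed targets were higher, with a median of 0.17. Of the other 8 there were 2 higher and 1 lower, with a median of 0.04, where 16.6% of all clusters were higher. In the comparisons with HiT the medians of the 2 lists lay closer together. From Pre to HiT, 4 of the 12 were higher and 1 lower, with a median of 0.18, and 4 of the other 8 were higher, with a median of 0.23, where 18.5% of all clusters were higher. From Fed to HiT, 6 of the 12 were higher and 2 lower, with a median of 0.20, and 4 of the other 8 were higher, with a median of 0.19, where 23.3% of all clusters were higher. The difference between the lists was not tested.

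All 5 promoters with the TGATGNAA element were on the ATF4 list, among the 8 listed promoters with a sequence, and none of the 5 other cytosolic promoters with a sequence held it. Calls from Pre to Mid did not follow the element. Of the 5 promoters with a match, Tars and Yars were called and Aars, Gars and Iars were not, while Eprs and Sars, without a match in their windows, were called. The window of Sars ended before its measured peak. The fit gave a log2 fold change of 0.09 ± 0.09 for Aars and 0.08 ± 0.06 for Gars. Of the 8 enzymes of the multisynthetase complex 4 were higher (Eprs, Lars, Mars1 and Qars), and of the 12 enzymes outside it 5 were higher.

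Genes of the amino acid response were mixed. Of 14 listed genes 9 had a promoter, and 4 of these were higher and 1 lower in Mid than in Pre. Atf4 rose by 0.89, Chac1, a glutathione-degrading enzyme, by 1.66, Sesn2, a leucine-sensing inhibitor of mTORC1, by 0.94 and Slc3a2, a partner chain of amino acid transporters, by 0.52 on the log2 scale. Ddit3, which encodes the stress factor CHOP, was lower at a log2 fold change of -0.67. Of the 3 complex scaffolds, Eef1e1 fell by 0.57 from Pre to Mid, whereas Aimp1 and Aimp2 were at 0.04 and -0.21 and were not called. Among 7 other genes of tRNA charging, formylation and proofreading, Qrsl1, the catalytic subunit of the mitochondrial glutamine amidotransferase, was higher by 0.28, and its partner Gatc and the mitochondrial formyltransferase Mtfmt were lower at a log2 fold change of -0.39 and -0.47.

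**Figure D2:**
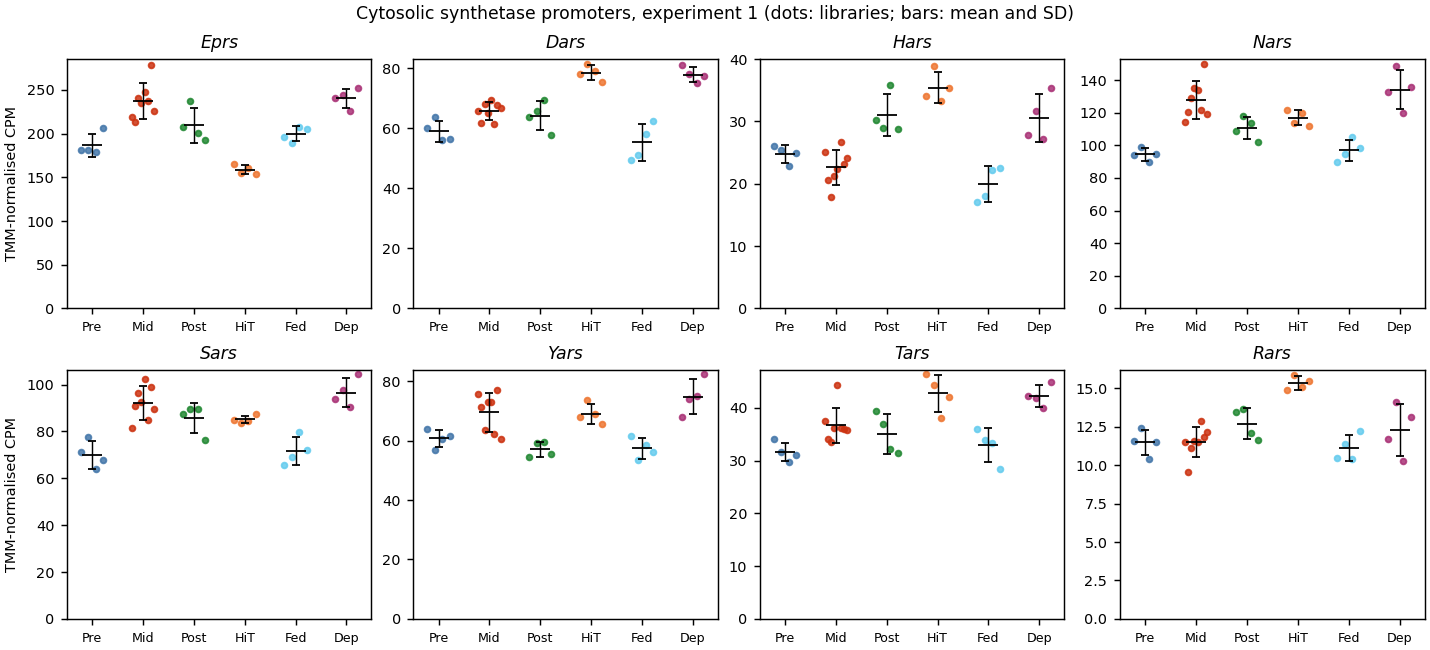
Each panel shows 1 cytosolic synthetase promoter, with group on the horizontal axis and level in TMM-normalised CPM on the vertical axis, which starts at 0. Dots are libraries of experiment 1 and bars are mean and SD. Eprs is lowest in HiT at 154 to 165, whereas Dars, Hars, Tars and Rars are high there. Directions between groups are those under TMM scaling, and no call reversed under the other scalings.

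The second comparison asked what happened after food returned. Food, sampling day and torpor again changed together. From Mid to Post, 1 of 20 cytosolic promoters was higher and 4 were lower, and 3 of 13 mitochondrial promoters were higher and 1 was lower, beside 35.0% of all clusters called, 17.5% as higher and 17.5% as lower. The share of members called was therefore not above the background. Eprs, Nars, Qars and Yars, which were higher in Mid than in Pre, were lower in Post than in Mid, and Hars2 and Mars2, which were lower in Mid, were higher in Post. Of all clusters 11.4% showed the first pattern and 10.8% the second. With upper-quartile factors the split became 5 higher and 2 lower for cytosolic promoters and 5 higher and 0 lower for mitochondrial ones, and without TMM factors it was 1 and 0 and 2 and 0. Without Post replicate 1 the count fell from 9 to 5.

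Yars was at 54.5, 59.1, 59.4 and 55.5 CPM in Post, all below the lowest Mid library at 60.5. The log2 fold change was -0.28 ± 0.07 (adjusted p = 0.0018). Eprs returned to 207, 237, 201 and 192, of which the second library lay at the Mid median, with a log2 fold change of -0.18 ± 0.06 (adjusted p = 0.031). Nars was at 109, 118, 114 and 102, still above all Pre libraries, with a log2 fold change of -0.21 ± 0.07 (adjusted p = 0.016). The call of Eprs was lost without Mid replicate 7 or without Post replicate 1, 3 or 4, at -0.18 to -0.14, and that of Nars without Post replicate 1 or 4, at -0.20 and -0.17.

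Sars was at 87.3, 89.6, 89.6 and 76.4 in Post and was not called from Mid to Post, at -0.10 ± 0.07 (adjusted p = 0.23). The first 3 of these values lay above every Pre library. Hars2 was at 15.04, 12.8, 12.9 and 14.8, all above the highest Mid library at 11.9, and rose by 0.52 ± 0.09 (adjusted p = 6.7e-05). Mars2 was at 9.12, 8.59, 8.81 and 8.85, also above all Mid libraries, and rose by 0.38 ± 0.11 (adjusted p = 0.0083). Yars2, the mitochondrial tyrosine enzyme, was at 12.5, 14.2, 15 and 14.9 in Post against 13.3 to 18.6 in Mid, with overlap and a log2 fold change of -0.22 ± 0.08 (adjusted p = 0.039). Tars2, for mitochondrial threonine, rose by 0.21 ± 0.07 (adjusted p = 0.023). Its call was lost without Post replicate 1 or 3, at 0.20 and 0.17, and that of Yars2 without each of 7 libraries in turn, at -0.22 to -0.16.

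Hars, the cytosolic histidine enzyme, was the 1 cytosolic promoter called as higher from Mid to Post. It was at 26.03, 25.4, 22.8 and 25.01 in Pre, at 17.9 to 26.7 in Mid with a median of 22.7, and at 30.3, 28.95, 35.9 and 28.8 in Post. The Post libraries were all above the Mid libraries, with a log2 fold change of 0.45 ± 0.10 (adjusted p = 6.4e-04), and the difference from Pre to Mid was -0.13 ± 0.10 (adjusted p = 0.32).

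Hars and Hars2 form a divergent pair on chromosome 18, with peaks 122 bp apart at 36783122 on the minus strand and 36783244 on the plus strand (mm10). CAGE tags carry strand, so the 2 promoters are counted apart. Both rose from Mid to Post. The ratio of Hars to Hars2 within a library, described with no test, was 1.91 to 2.23 in Pre, 1.75 to 3.17 in Mid and 1.94 to 2.79 in Post, and these groups overlapped. In experiment 2 it was 2.23 to 2.37 in Pre, 2.62 to 4.48 in Mid and 3.09 to 3.74 in Post, so both later groups lay above the Pre libraries. In experiment 1 it was 1.21 to 1.83 in Fed, below every Pre library, and 2.51 to 3.63 in HiT and 2.57 to 3.25 in Dep, above every Pre and Fed library. From Fed to HiT, Hars rose by 0.82 on the log2 scale, whereas Hars2 was at -0.12 and was not called.

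**Figure D3:**
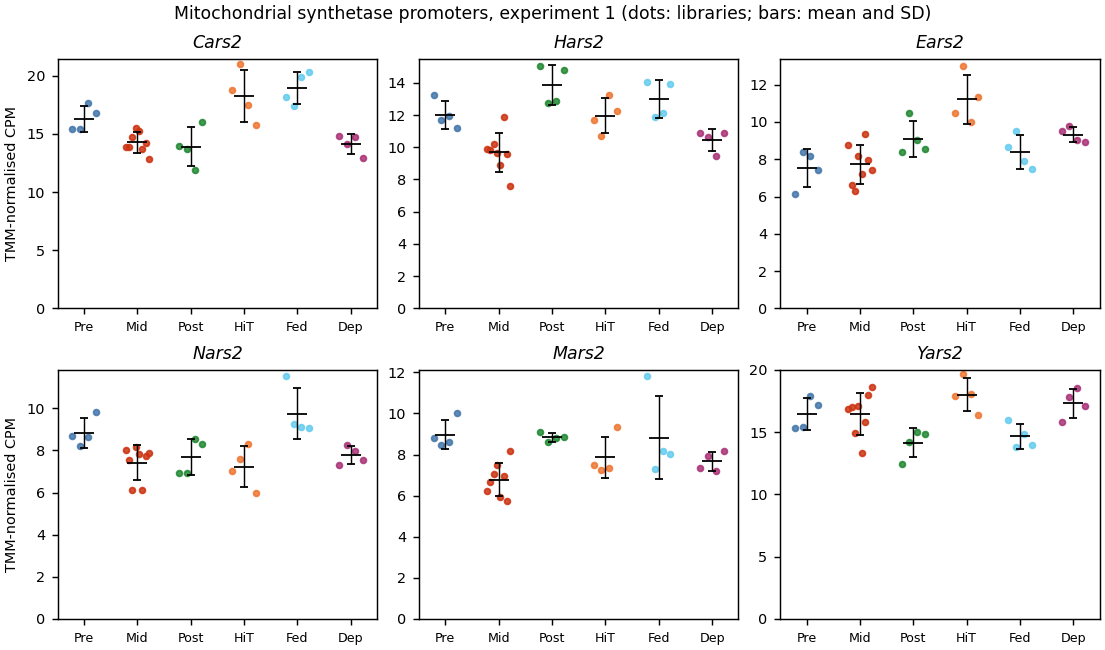
Each panel shows 1 mitochondrial synthetase promoter, with group on the horizontal axis and level in TMM-normalised CPM on the vertical axis, which starts at 0. Dots are libraries of experiment 1 and bars are mean and SD. Hars2 and Mars2 are lower in Mid than in Pre and Post, and Ears2 is highest in HiT at 10.01 to 13.03, directions that no other scaling reversed.

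Markers of other cells and of muscle itself also moved with recovery. The summed level of the 6 promoters of 4 globin genes was 2990 to 4238 in Mid and 2019 to 2622 in Post, with none of the 6 called. Of 5 endothelial genes 2 were higher and 1 was lower in Post than in Mid. Of the 22 slow-muscle promoters 5 were higher, and of the 15 fast glycolytic muscle promoters none was called. Their part in the synthetase values was not tested.

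The third comparison set Mid mice against mice that kept their food at the same temperature. From Fed to Mid, 8 of 20 cytosolic promoters were higher and 1 was lower, and 4 of 13 mitochondrial promoters were lower, with 35.2% of all clusters called, 16.6% as higher and 18.6% as lower. The median log2 fold change was 0.15 for cytosolic promoters and -0.12 for mitochondrial ones, the same signs without TMM factors, under which no cytosolic promoter and 4 mitochondrial ones (lower) were called. Taking TMM factors away moved the median of all clusters to -0.12. Relative to the median of all clusters, 17 of 20 cytosolic promoters lay above it under TMM scaling. Upper-quartile, DESeq2 and library-size scaling gave the same count. A scaling factor shifts all clusters of a library alike, so this count cannot test the scaling. The cytosolic promoters higher in Mid than in both Pre and Fed numbered 7, namely Cars, Eprs, Mars1, Nars, Qars, Sars and Yars. The call of Mars1 from Fed to Mid was lost without each of 13 libraries in turn, and that of Cars without each of 5. The log2 fold changes were then 0.14 to 0.21. Of all clusters 9.94% were higher in both. The Mid libraries are shared by both comparisons. Markers of other cells moved with this comparison too. Of the 6 globin promoters 5 were lower in Mid than in Fed, with sums of 2990 to 4238 in Mid and 2814 to 13752 in Fed, and of 5 endothelial genes 4 were lower and 1 was higher, with sums of 159 to 194 in Mid and 180 to 208 in Fed. Their part in the synthetase values was not tested.

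Nars was at 89.9, 94.5, 105 and 98.4 in Fed, below every Mid library, with a log2 fold change of 0.40 ± 0.07 from Fed to Mid (adjusted p = 5.9e-05). Sars was at 65.6, 69.0, 79.6 and 71.9, also below every Mid library, at 0.36 ± 0.07 (adjusted p = 1.6e-04). Dars was at 49.4, 51.2, 58.3 and 62.4 in Fed and at 61.5 to 69.6 in Mid, with a slight overlap, at 0.25 ± 0.06 (adjusted p = 0.0021). Yars at 61.7, 53.4, 58.7 and 56.2 overlapped the lowest Mid library and gave 0.27 ± 0.07 (adjusted p = 0.0025). Farsa, a subunit of the phenylalanine enzyme, was the 1 cytosolic promoter that was lower, at a log2 fold change of -0.26 ± 0.08 (adjusted p = 0.017), a call lost without Fed replicate 2 or 4 at -0.23 and -0.25. Its partner subunit Farsb was called in no comparison of 2 groups.

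The mitochondrial promoters lower in Mid than in Fed were Cars2, Hars2, Nars2 and Mars2. Cars2, for cysteine, was at 18.2, 17.4, 19.9 and 20.3 in Fed and at 12.9 to 15.5 in Mid, with no overlap, a log2 fold change of -0.41 ± 0.08 (adjusted p = 2.4e-04). Nars2, for asparagine, was at 11.6, 9.26, 9.14 and 9.05 in Fed and at 6.10 to 8.15 in Mid, again with no overlap, at -0.39 ± 0.10 (adjusted p = 0.0035). Nars and Nars2, which serve the same amino acid in the 2 compartments, therefore differed from Fed to Mid in opposite directions, and no alternative scaling reversed either one.

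Hars2 was at 14.1, 11.9, 12.1 and 13.9 in Fed and fell by 0.42 ± 0.09 to Mid (adjusted p = 6.6e-04). It was the 1 member lower in Mid than in each of Pre, Fed and HiT, as were 431 of all 10776 clusters. Its call from HiT to Mid was lost without HiT replicate 3 (-0.23, adjusted p = 0.075) or HiT replicate 4 (-0.26, adjusted p = 0.052). Mars2 was at 11.8, 7.29, 8.19 and 8.01 in Fed, where replicate 1 lay far above the others, and the difference was -0.37 ± 0.11 (adjusted p = 0.0098). Without Fed replicate 1 it was -0.21 and was not called (adjusted p = 0.12).

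**Figure D4:**
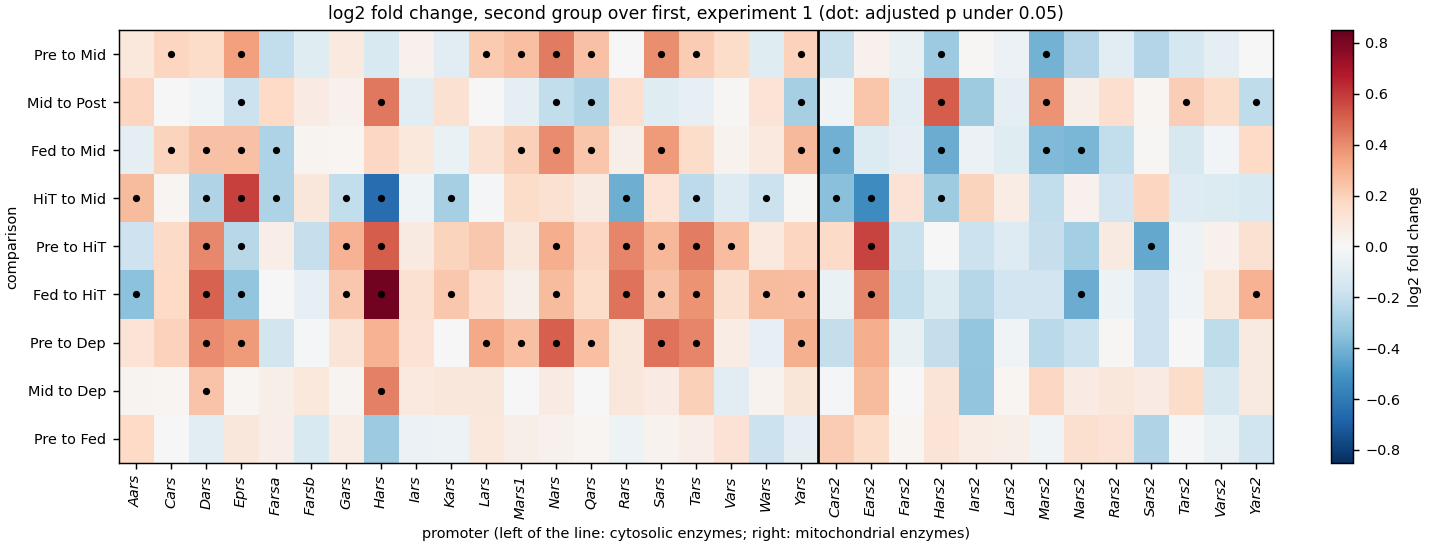
Rows are comparisons within experiment 1 and columns are the 33 promoters, cytosolic left of the line and mitochondrial right of it. Colour gives the log2 fold change of the second group over the first under TMM scaling, and a dot marks an adjusted p under 0.05. Pre to Mid shows 9 dots on red for cytosolic promoters, and Pre to Fed shows none.

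The fourth comparison used HiT, in which mice fasted without torpor. From HiT to Mid, 2 of 20 cytosolic promoters were higher and 8 were lower, and 3 of 13 mitochondrial promoters were lower, with 41.0% of all clusters called, 19.2% as higher and 21.8% as lower. The lower cytosolic promoters were Dars, Farsa, Gars, Hars, Kars, Rars, Tars and Wars, and the higher ones were Eprs and Aars. Without TMM factors 1 cytosolic promoter was higher and 1 lower and 1 mitochondrial promoter was lower, and the median of all clusters moved to 0.11. From Pre to HiT, 8 cytosolic promoters were higher and 1 was lower and the mitochondrial promoters had 1 in each direction, with 33.4% of all clusters called, 18.5% as higher and 14.9% as lower. With upper-quartile factors this became 7 higher and 2 lower for cytosolic and 1 and 2 for mitochondrial promoters, with DESeq2 8 and 2 and 1 and 2, and without TMM factors a single mitochondrial promoter was called, lower.

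Eprs was lowest in HiT, at 165, 155, 160 and 154, below every other library of experiment 1. It was 0.58 ± 0.07 higher in Mid than in HiT on the log2 scale (adjusted p = 1.2e-07), and HiT was lower than Pre at a log2 fold change of -0.24 ± 0.07 (adjusted p = 0.016). Without Pre replicate 4, the Pre library that stood apart, the latter was -0.18 and was not called (adjusted p = 0.078). Eprs was the 1 member higher in Mid than in each of Pre, Fed and HiT, as were 4.76% of all clusters.

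Hars had the largest difference of any member from HiT to Mid, and was at 34.1, 38.9, 33.4 and 35.3 in HiT, above every Pre, Mid and Fed library. The log2 fold change was 0.51 ± 0.11 from Pre to HiT (adjusted p = 8.4e-04) and -0.65 ± 0.09 from HiT to Mid (adjusted p = 6.2e-06). Dars was at 78.1, 81.5, 79.0 and 75.6 in HiT, above every Pre, Mid, Post and Fed library, with 0.41 ± 0.07 from Pre (adjusted p = 4.6e-05).

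Rars, the arginine enzyme, was at 11.6, 12.4, 10.4 and 11.5 in Pre, at 9.56 to 12.9 in Mid with a median of 11.5, and at 14.9, 15.9, 15.1 and 15.4 in HiT. The HiT libraries lay above every other library of experiment 1, and the log2 fold change from Pre to HiT was 0.42 ± 0.09 (adjusted p = 0.0013). Tars was at 46.4, 44.4, 38.2 and 42.2 in HiT, at 0.43 ± 0.09 from Pre (adjusted p = 3.9e-04) and -0.22 ± 0.07 from HiT to Mid (adjusted p = 0.021), a call lost without each of 6 libraries in turn at -0.20 to -0.15. Nars at 121, 114, 120 and 112 and Sars at 84.98, 83.6, 84.4 and 87.5 lay above every Pre library, with 0.31 ± 0.08 and 0.28 ± 0.08 from Pre to HiT, and neither was called from HiT to Mid.

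Ears2, which charges mitochondrial tRNA with glutamate, was at 6.12, 8.41, 8.15 and 7.41 in Pre, at 6.30 to 9.35 in Mid with a median of 7.67, and at 10.5, 13.03, 10.01 and 11.3 in HiT. The HiT libraries lay above all Pre and Mid libraries. The log2 fold change was 0.58 ± 0.12 from Pre to HiT (adjusted p = 7.1e-04) and -0.54 ± 0.10 from HiT to Mid (adjusted p = 2.1e-04). Cars2 was at 18.8, 21.0, 17.5 and 15.7 in HiT, above every Mid library, and fell by 0.36 ± 0.08 to Mid (adjusted p = 7.8e-04). Sars2, the mitochondrial serine enzyme, was lower in HiT than in Pre, at a log2 fold change of -0.43 ± 0.13 (adjusted p = 0.010), whereas Sars was higher. The members higher in HiT than in each of Pre, Fed and Mid numbered 6 of 33, namely Dars, Gars, Hars, Rars, Tars and Ears2, beside 10.1% of all clusters. The 3 comparisons share the HiT libraries.

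Fed and HiT, both without torpor, differed in food and in temperature together, so the 2 factors cannot be told apart. Between them 43.2% of all clusters were called, 23.3% as higher in HiT and the rest as lower. From Fed to HiT, 10 of 20 cytosolic promoters were higher and 2 were lower, and 2 of 13 mitochondrial promoters were higher and 1 was lower. Without TMM factors these became 1 and 2 and 0 and 1, the median of all clusters moved to -0.21, and the cytosolic median log2 fold change turned from 0.20 to -0.01. Hars had 17.05, 18.1, 22.3 and 22.5 in Fed and gave the largest value, 0.82 ± 0.11 (adjusted p = 3.4e-06). Dars gave 0.50 ± 0.07 and Rars 0.46 ± 0.09, whereas Eprs at 197, 189, 208 and 206 in Fed gave -0.33 ± 0.07 and Aars, for alanine, -0.35 ± 0.11. Nars2, at 7.03, 7.62, 8.30 and 5.99 in HiT, was lower there than in Fed at a log2 fold change of -0.42 ± 0.12 (adjusted p = 0.0050). Yars2 was at 17.9, 19.6, 18.1 and 16.4 in HiT and at 15.98, 13.8, 14.8 and 13.996 in Fed, and rose by 0.30 ± 0.09 (adjusted p = 0.012).

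Markers of other cells moved with HiT. Of 6 macrophage genes listed 5 had a cluster, all 5 were higher in HiT than in Pre, Fed and Mid, and their summed level was 72.2 to 151 in HiT against 26.5 to 43.2 in Pre, 29.2 to 46.5 in Mid, 28.6 to 51.1 in Post, 32.7 to 50.9 in Fed and 26.9 to 44.2 in Dep. Adgre1 had no cluster. The summed level of the 8 promoters of 7 tendon and fibroblast genes was 2496 to 5146 in HiT and 1338 to 3136 over the other groups of experiment 1, and 1 of the 8 was higher and 1 lower in HiT than in Pre. The summed level of 5 endothelial genes was 143 to 173 in HiT, 172 to 198 in Pre and 180 to 208 in Fed, and HiT was lower for 3 of the 5 against Pre and for 4 of the 5 against Fed. The 6 globin promoters summed to 1887 to 3285 in HiT, 3601 to 5134 in Pre and 2814 to 13752 in Fed, with 3 of 6 lower in HiT than in Pre and 4 of 6 lower than in Fed. Of the 22 promoters of the 7 slow-muscle genes 4 were lower in HiT than in Pre and none was higher, and their sum was 10027 to 12746 in HiT and 13575 to 15096 in Pre. Of the 15 promoters of the 7 fast glycolytic muscle genes 5 were lower and 1 was higher in HiT than in Pre. Against Fed 6 of the 15 were lower and 3 were higher in HiT. The sum of the 15 was 6761 to 7995 in HiT and 6936 to 9092 in Pre. The part of these cells in the synthetase levels of HiT was not tested. Of the 9 amino acid response genes with a promoter, 3 were higher and 1 was lower in HiT than in Pre. Psat1, an enzyme of serine synthesis, rose by 1.94, Mthfd2, a mitochondrial folate enzyme, by 1.60 and Atf4 by 0.63 on the log2 scale, and Ddit3 fell by 1.05. Atf4 and Ddit3 were called in the same directions from Pre to Mid, whereas Psat1 and Mthfd2 were not called there.

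The fifth comparison asked what torpor deprivation added. From Mid to Dep, Dars and Hars were higher and no other member was called, beside 2.03% of all clusters, 1.16% as higher and 0.872% as lower. Dars was at 81.3, 78.2, 75.1 and 77.4 in Dep, above every Mid library, with a log2 fold change of 0.24 ± 0.06 (adjusted p = 0.032). Hars was at 27.9, 31.6, 27.1 and 35.4, also above every Mid library, with 0.43 ± 0.10 (adjusted p = 0.023). Both were also the largest rises among members from Fed to HiT. The 2 calls were lost without Dep replicate 2, without Dep replicate 4, without TMM factors and when only Mid and Dep were fitted, and 1 remained without Dep replicate 1 or Mid replicate 2. Dep replicate 1 carried the highest summed level of neutrophil markers, 133 CPM, where the other groups of experiment 1 reached at most 1.56, and its part in the 2 calls was not tested.

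Dep was also set against Pre, a comparison added after the data had been seen. From Pre to Dep, 9 of 20 cytosolic promoters were higher and no mitochondrial promoter was called, with 25.8% of all clusters called, 13.7% as higher and 12.1% as lower. Of these 9, 8 (Eprs, Lars, Mars1, Nars, Qars, Sars, Tars and Yars) were also higher in Mid than in Pre, and Dars was the other one. Of all clusters 10.2% were higher in both. The call of Mars1 from Pre to Dep was lost without each of 7 libraries in turn. That of Qars was lost without each of 2, and that of Lars without 1. The comparisons share the Pre libraries, so their values are given side by side. Nars was at 133, 149, 120 and 136 in Dep, with 0.51 ± 0.08 from Pre to Dep and 0.44 ± 0.07 from Pre to Mid. Sars was at 93.9, 97.9, 90.2 and 104, with 0.46 ± 0.08 and 0.40 ± 0.07. Eprs was at 240, 244, 225 and 252, with 0.36 ± 0.07 and 0.35 ± 0.07. Tars was at 42.4, 41.9, 40.0 and 45.0, with 0.42 ± 0.09 and 0.21 ± 0.08, and its difference from Mid to Dep was not called (0.20 ± 0.08, adjusted p = 0.14). With upper-quartile factors 6 cytosolic promoters were higher and 3 mitochondrial ones were lower, and without TMM factors none was called and the median of all clusters moved to -0.18.

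Fed on day 2 was compared with Pre on day 1 as a background for mice that ate throughout. No member was called by edgeR's quasi-likelihood test, 3 of 33 had an unadjusted p under 0.05, DESeq2 called 1, and 11.2% of all clusters were called, 5.88% as higher and 5.32% as lower. The log2 fold changes of members ran from -0.31 (Hars, adjusted p = 0.070) to 0.22 (Cars2, adjusted p = 0.12). Wars, the tryptophan enzyme, had the smallest p, at -0.18 ± 0.06 (adjusted p = 0.059).

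The 6 members Fars2, Farsb, Iars, Iars2, Lars2 and Vars2 were called in no comparison of 2 groups in either experiment. Iars, for isoleucine, is a cytosolic promoter of the ATF4 list with the TGATGNAA element. Iars2, for mitochondrial isoleucine, was the most abundant mitochondrial promoter at 69.8 CPM. Rars2 was called in experiment 2 alone.

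The second set of mice gave a check of the same comparisons in other animals. From Pre to Mid in experiment 2 no member was called by edgeR's quasi-likelihood test, 6 of 33 had an unadjusted p under 0.05, edgeR's likelihood ratio test called 1 and DESeq2 called 2, and 9.74% of all clusters were called with 2 Pre libraries, 5.30% as higher and 4.44% as lower. The median log2 fold change was 0.13 for cytosolic promoters, with 17 of 20 positive, and -0.11 for mitochondrial ones, with 9 of 13 negative. Of the 9 cytosolic and 2 mitochondrial promoters called in experiment 1, all 11 had the same sign in experiment 2. The same held for 18 of all 20 cytosolic and 9 of all 13 mitochondrial promoters. The share of all clusters with the same sign was not counted, so these counts have no background beside them.

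Eprs was at 117 and 119 in Pre and at 140 to 181 in Mid of experiment 2, with no overlap and a log2 fold change of 0.43 ± 0.13 (adjusted p = 0.063). Hars2 was at 10.7 and 11.4 in Pre and at 6.56 to 9.47 in Mid, again with no overlap, at -0.49 ± 0.16 (adjusted p = 0.083). Mars2 was at 6.56 and 6.73 in Pre and at 4.33 to 5.48 in Mid, at -0.41 ± 0.17 (adjusted p = 0.18). Cars, for cysteine, gave 0.44 ± 0.14 (adjusted p = 0.068).

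Nars was at 95.6 and 101 in Pre and at 102 to 131 in Mid, a log2 fold change of 0.24 ± 0.11 (adjusted p = 0.20), and Sars was at 106 and 122 in Pre and at 121 to 128 in Mid, overlapping, with 0.13 ± 0.09 (adjusted p = 0.43). When the Pre to Mid change was tested for a difference between experiments by an interaction term, no member and 0 of 10818 clusters were called, and 1 member, Nars2, had an unadjusted p under 0.05. The differences of members ran from -0.27 to 0.43 on the log2 scale.

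From Mid to Post in experiment 2, 1 cytosolic promoter (Aars) and 2 mitochondrial promoters (Ears2 and Rars2) were higher, with 16.4% of all clusters called, 7.73% as higher and 8.65% as lower. Aars rose by 0.33 ± 0.09 (adjusted p = 0.038), Ears2 by 0.38 ± 0.11 (adjusted p = 0.048) and Rars2, for mitochondrial arginine, by 0.47 ± 0.12 (adjusted p = 0.023). None of the 3 was called from Mid to Post in experiment 1, where all 3 differences were positive. Lane and group nearly coincided, since all 3 Post libraries of experiment 2 were sequenced in lane 4 and 4 of the 5 Mid libraries in lane 3. With lane as a term the log2 fold changes were 0.48, 0.43 and 0.45 and none was called (adjusted p = 0.10, 0.25 and 0.26). The call of Aars was also lost without each of 9 libraries in turn, that of Ears2 without each of 7 in turn and that of Rars2 without each of 2, at log2 fold changes no lower than 0.29. Of the 5 cytosolic and 4 mitochondrial promoters called in experiment 1, all 9 had the same sign in experiment 2. The same held for 15 of all 20 cytosolic and 11 of all 13 mitochondrial promoters. Here too the share of all clusters with the same sign was not counted.

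**Figure D5:**
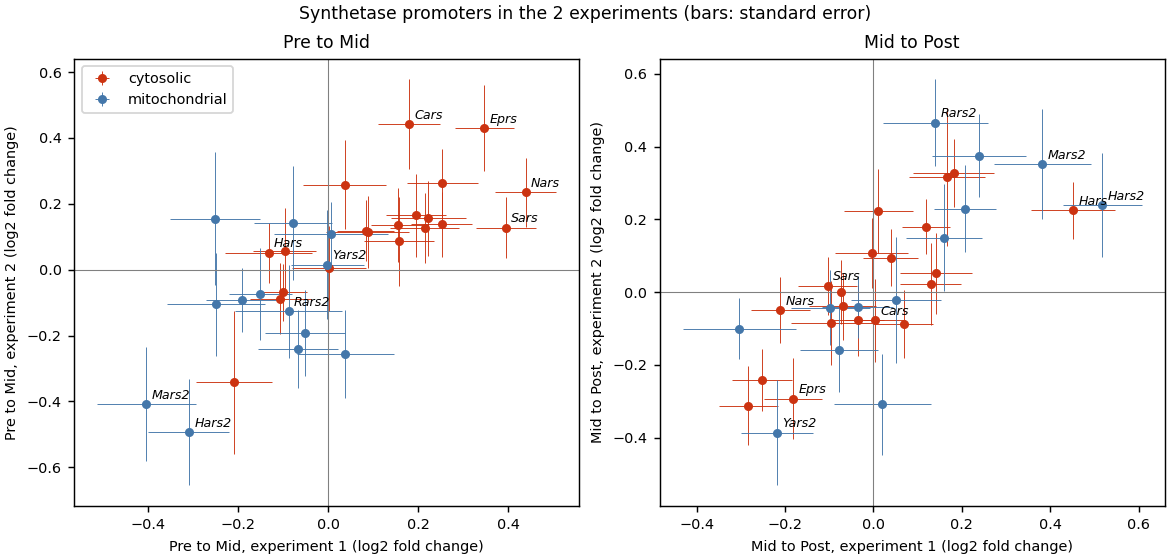
Each point is 1 synthetase promoter, with its log2 fold change in experiment 1 on the horizontal axis and in experiment 2 on the vertical axis, for Pre to Mid on the left and Mid to Post on the right. Red points are cytosolic, blue points are mitochondrial, and bars are standard errors. Points in the upper right and lower left have the same sign in both experiments, as 18 of 20 cytosolic promoters do for Pre to Mid.

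Levels themselves differed between the runs for some members. Rars was at 9.56 to 15.9 CPM over the libraries of experiment 1 and at 39.1 to 51.5 in experiment 2, and Yars was at 53.4 to 82.4 in experiment 1 and at 25.7 to 37.9 in experiment 2. Yars thus lay above Rars in experiment 1 and below it in experiment 2. The mice, the sequencing run and the instrument changed together, so these cannot be told apart, and levels were compared only within an experiment.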

How the data were processed

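Soleus RNA of 38 mice was sequenced as nAnT-iCAGE libraries, 1 mouse each. Per the study's methods the authors mapped reads to mm10 with BWA and HISAT2 (versions not given in the sources used here), clustered starts with PromoterPipeline and took the highest peak as the start. The deposited table holds, for each cluster and library, whole-number tag counts, which were used here, and TPM values (tags scaled to a common library total), which the authors scaled by library and which were not used.

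Members were clusters within 500 bp, same strand, of a GENCODE vM21 5' end, with older symbols taken from RefSeq. The members and lists were chosen with earlier results of these data known. edgeR 4.0.16 in R 4.3.3 was run on the counts: TMM factors, glmQLFit and glmQLFTest, all groups of an experiment in 1 fit, clusters with any tag, Benjamini-Hochberg over 10776 clusters (experiment 1), 10816 (experiment 2) and 10818 (interaction). The step was tested on simulated data with known changes, of which the smaller ones were mostly not recovered. The simulation gave every cluster the same spread and changed few clusters, so its recovery need not hold for the real data. Library-by-library values were given for the 8 cytosolic and 6 mitochondrial members with the smallest p over the 6 groups. Alternatives were DESeq2 1.42.0, a likelihood ratio test, other scaling factors, a low-count filter, a window of 100 bp, summed clusters, fits of 2 groups, all 38 libraries with experiment as a term, sequencing lane, a replicate block and leaving out each library. The comparison of Pre with Dep and the within-library ratios were added after the data were seen. Same-numbered libraries did not deviate together (r from -0.639 to 0.46 over 60 pairs, 17 above 0.1), so numbers were not taken as pairs. No 2 libraries of a group agreed within sampling noise.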

Additional observations from a re-analysis of the deposited data

Results flagged for a closer look

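Within groups of 4 to 8 libraries, the highest or lowest value of a member was set against the gap expected in a small sample (Dixon's test), and 4 of 112 groups tested had a value standing apart. Chance alone gives about 1 in 20. Eprs was 206 CPM in Pre replicate 4, where the other Pre libraries lay at 179 to 181. Tars was 44.3 in Mid replicate 5 against 33.6 to 37.6 in the other Mid libraries. Nars2 was 11.6 in Fed replicate 1 against 9.05 to 9.26 in the other Fed libraries. Mars2 was 9.36 in HiT replicate 4 against 7.24 to 7.48.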

How the results depend on the processing

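Of 86 calls of a member in a comparison, none reversed direction under any alternative, and DESeq2 lost 1, edgeR's likelihood ratio test 5, upper-quartile factors 15, and library size without TMM factors 67. Without TMM factors the members called were 1 from Pre to Mid (11 with TMM), 3 from Mid to Post (9), 3 from HiT to Mid (13), 4 from Fed to Mid (13), 0 from Mid to Dep (2), 4 from Fed to HiT (15), 1 from Pre to HiT (11), 0 from Pre to Dep (9) and 5 in the test over 6 groups (24). Fits of only the 2 groups gave 7 from Pre to Mid, 5 from Mid to Post and 0 from Mid to Dep. All 38 libraries with experiment as a term gave 14 from Mid to Post and 3 from Pre to Fed, where DESeq2 and upper-quartile factors each gave 1 and the quasi-likelihood test 0. In experiment 2, the likelihood ratio test gave 1 and DESeq2 2 from Pre to Mid, and lane as a term gave 0 from Mid to Post. The replicate block, although the numbers do not pair the mice, gave 8 from Fed to Mid and 9 from Pre to Mid and changed no other count by over 1.5 times. No replicate block was fitted in experiment 2, where Mid shares no replicate number with Pre or Post. Leaving out 1 library at a time gave 6 to 12 calls from Pre to Mid, 5 to 11 from Mid to Post, 9 to 13 from HiT to Mid, 10 to 14 from Fed to Mid, 0 to 2 from Mid to Dep, 14 to 16 from Fed to HiT, 10 to 14 from Pre to HiT, 0 to 2 from Pre to Fed, 6 to 12 from Pre to Dep, 20 to 25 over the 6 groups, and in experiment 2 0 to 2 from Pre to Mid and 0 to 3 from Mid to Post. From Pre to Fed, 2 calls appeared without Mid replicate 3 or Fed replicate 3. Where calls were lost the cause was not tested. Standard errors of member differences were 0.05 to 0.15 in experiment 1 and 0.07 to 0.22 in experiment 2. Of 249 differences under 0.3 on the log2 scale in experiment 1, 40 were called, against 43 of 48 at 0.3 or more. In experiment 2, 3 of 66 were called, the smallest at 0.33. These were 3 of 13 differences at 0.3 or more and 0 of 53 under 0.3. Smaller differences were therefore often not detectable with these groups, and in experiment 2 most of the larger ones were not called either.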
